A study of Caenorhabditis elegans with 48 samples.

Results

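mir-243 of the nematode Caenorhabditis elegans is a microRNA (miRNA) precursor whose hairpin is cut into 2 mature strands, miR-243-3p and miR-243-5p. Both were taken by name from the deposited counts, and they are 2 of the 437 strands listed there. Small RNAs of whole larvae were sequenced every hour from 0 to 23 h in WT and lin-28(0) animals, with 24 libraries per genotype and 1 library per genotype and hour. WT here is strain HW1993, which carries on chromosome IV the transgene xeSi312, a luciferase and GFP reporter driven by the eft-3 promoter and marked by unc-119(+). lin-28(0) is strain HW2706, which carries the same reporter and lin-28(xe192), a CRISPR deletion that removes the lin-28 locus. Synchronized larvae of the first larval stage (L1) of both strains were placed in liquid culture with E. coli OP50 as food at 25°C. They were collected hourly from 0 h and received no treatment. All hours of a genotype were drawn from the same strain grown as a time course, no separate replicate cultures were analysed here, and every p-value given below measures only the spread between these hourly libraries.

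A miRNA precursor is cut by Dicer into a short duplex, and an Argonaute protein usually keeps a single strand of it, the guide, while the other, the passenger, is lost. In C. elegans most miRNAs are loaded into the Argonautes ALG-1 and ALG-2, which repress mRNAs through partial pairing. miR-243, the -3p strand, is known instead for its association with RDE-1, the Argonaute that otherwise takes the small RNAs made from long double-stranded RNA in RNA interference, and for directing secondary siRNAs to the transcript of Y47H10A.5. Neither Argonaute binding nor siRNAs were measured in these libraries, and only the level of each strand and the ratio of both could be followed. LIN-28 binds RNA, holds back the processing of let-7 and sets the timing of larval fates. In the WBcel235 annotation, mir-243 (R08C7.14) lies on chromosome IV within an intron of the protein-coding gene R08C7.12 and on the same strand. Only 1 of the 4 annotated transcripts of R08C7.12 spans it. The annotated hairpin is 98 bases long, with a 5p arm of 19 bases and a 3p arm of 23 bases.

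Levels are given in counts per 1000000 miRNA counts of the library (CPM). They are shares of the miRNA reads, so that fewer cells with the miRNA and less of it per cell cannot be told apart. The libraries held 2315421 to 20757531 counts. The 5 deepest, each with at least 12758965 counts, were the WT libraries of 1 and 2 h and the lin-28(0) libraries of 1 to 3 h. A strand with 3 counts would have stood at 1.3 CPM or less in every library, far below both strands of mir-243. Markers of muscle, neurons, intestine and glia with seam were each counted in all 48 libraries. Of 7 strands of the miR-35 family, abundant in embryos, 6 were counted in every library. All 7 together summed to 731 to 4902 CPM in the WT libraries and to 1528 to 10964 CPM in the mutant ones. Of these strands, miR-35-3p was higher in lin-28(0) on average (log2 0.58 ± 0.12 (SE), adjusted p = 2.1e-04, edgeR quasi-likelihood test). The other tested ones gave 0.27 (miR-39-3p) to 0.57 (miR-37-3p), with adjusted p = 0.0489 for miR-38-3p (0.33) in the same test.

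miR-243-3p was the abundant strand, with 5583 to 23542 counts per library. Among WT libraries the lowest level was 775 CPM (2 h), the median 2160 CPM and the highest 2889 CPM (15 h) (mean 2049 ± 490, SD over 24 hours). Among lin-28(0) libraries the lowest was 1097 CPM (3 h), the median 1897 CPM and the highest 3174 CPM (11 h) (mean 1877 ± 447). The ranges of the genotypes overlapped over most of their length. Over all 48 libraries its mean of 1963 CPM was the 37th highest of the 414 strands with any count, and its place within single libraries lay between 28 and 52.

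miR-243-5p was far rarer but was counted in every library, with 229 to 2871 counts. In WT it ran from 37.6 CPM at 0 h (exact Poisson 95% interval 32.9 to 42.8) to 170 CPM at 18 h, with a median of 119.1 CPM (mean 118.9 ± 31.9). In lin-28(0) it ran from 77.4 CPM at 0 h (71.7 to 83.5) to 205 CPM at 10 h, with a median of 149 CPM (mean 147 ± 28.9). The 0 h library was therefore the lowest in both genotypes, and the genotypes overlapped over most of their ranges. Its overall mean of 133 CPM ranked 98th, so that this minor strand was more abundant than most tested strands, 60.2% of which had a lower mean.

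**Figure D1:**
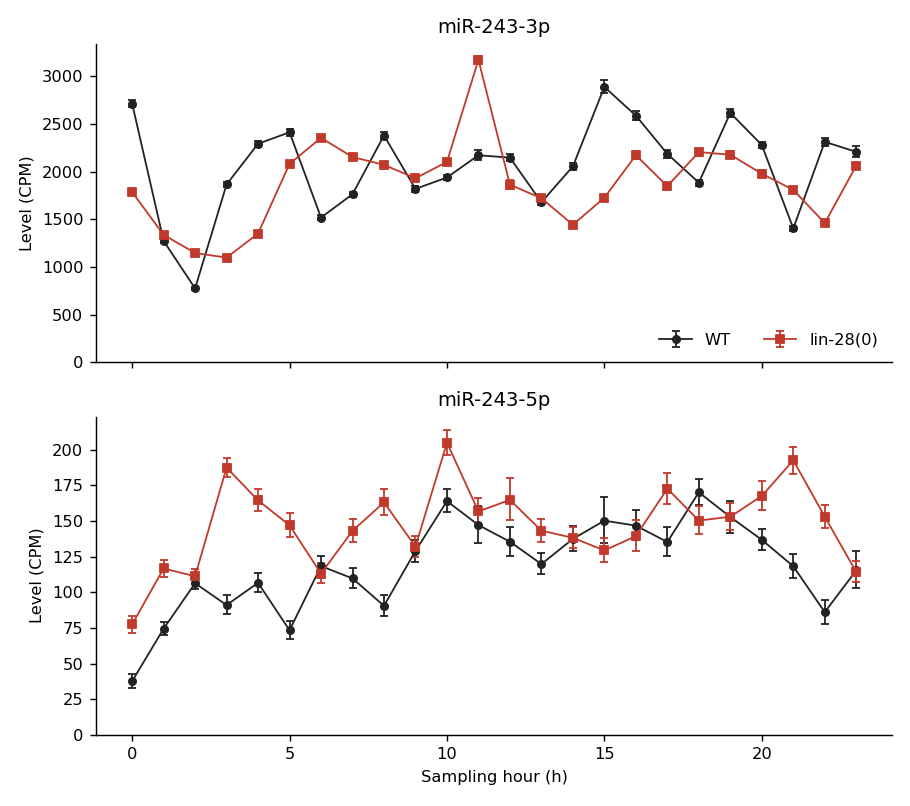
Level of miR-243-3p (top) and miR-243-5p (bottom) in CPM against the sampling hour in WT (black circles) and lin-28(0) (red squares). Each point is 1 library and the bars are exact Poisson 95% intervals, which cover counting error only. The 3p curves cross repeatedly, with low levels at 1 and 2 h in WT and from 1 to 4 h in lin-28(0), whereas the 5p curve of lin-28(0) lies above that of WT at 19 of 24 hours.

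The first comparison asked how each strand changed over larval time within a genotype. miR-243-5p changed with time in both. Its WT level was 89.7 ± 26.8 CPM at 0 to 7 h, 134 ± 22.3 CPM at 8 to 15 h and 133 ± 26.0 CPM at 16 to 23 h (SD, n = 8 hours each). In lin-28(0) the same windows gave 133 ± 34.8, 154 ± 24.7 and 155 ± 23.4 CPM. The window means thus differed mainly between the first window and the second, but levels also rose within the first. In WT they were 37.6 CPM at 0 h, 90.6 ± 16.0 CPM at 1 to 3 h and 102 ± 19.8 CPM at 4 to 7 h. In lin-28(0) they were 77.4, 139 ± 42.6 and 142 ± 21.4 CPM.

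In the spline fit of edgeR, the fitted level of miR-243-5p at 20 to 23 h exceeded that at 0 to 3 h by 0.75 ± 0.16 (SE) on the log2 scale in WT (adjusted p = 3.3e-04) and by 0.68 ± 0.15 in lin-28(0) (adjusted p = 2.3e-04). The test of its whole course gave adjusted p = 4.9e-04 in WT and 7.7e-04 in lin-28(0). Such changes were common, with 67.9% of the 246 tested strands past the threshold of 0.01 in WT and 79.7% in lin-28(0). In lin-28(0) the course rested on the library of 0 h, without which the adjusted p was 0.0193. The size of the rise there also varied with the libraries and the scaling. It was 0.40 (adjusted p = 0.0184) when scaled by total counts. Without the libraries of 1 to 3 h, the early level was that of the 0 h library alone (77.4 CPM). The difference from it was 1.23.

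miR-243-3p did not change detectably in WT. Its windows stood at 1827 ± 640, 2135 ± 375 and 2185 ± 391.7 CPM, the course gave adjusted p = 0.353 and the late-minus-early difference was 0.31 ± 0.28 (adjusted p = 0.325). That difference was -0.06 without the library of 2 h, so that its sign rested on a single library. In lin-28(0) the windows stood at 1663 ± 493, 2004 ± 518 and 1964 ± 253 CPM, and the strand passed both for its course (adjusted p = 0.0023) and for a late-minus-early rise of 0.77 ± 0.19 (adjusted p = 8.6e-04). The libraries of 1 to 3 h held 1097 to 1337 CPM, against 1786 CPM at 0 h. Without them the course no longer passed (adjusted p = 0.226). The late hours then stood against the 0 h library alone, with a difference of 0.31. The median late-minus-early difference of all tested strands was -0.21 in WT (-0.04 with DESeq2 size factors) and 0.10 in lin-28(0), and in lin-28(0) it became -0.18 when libraries were scaled by total counts, where the rise of miR-243-3p was 0.49 (adjusted p = 0.0122).

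The second comparison set lin-28(0) against WT at equal hours. miR-243-5p was called as higher in lin-28(0), whereas miR-243-3p was not called. Averaged over the 24 hours of the spline fit, miR-243-5p was higher in lin-28(0) by 0.31 ± 0.06 (SE) on the log2 scale (adjusted p = 2.0e-04, edgeR), at 19 of 24 hours. At 14 of these hours the counting intervals of the genotypes did not overlap, and at only 1 hour did they lie apart in the other direction. These intervals cover counting error only, and those of the uncalled miR-243-3p overlapped at just 1 hour. Among all tested strands 22.8% passed this test, 16.3% as higher and 6.5% as lower, with a median difference of 0.04. miR-243-5p thus belonged to 40 strands that were higher in lin-28(0), with the 12th smallest p but only the 59th largest difference in either direction.

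For miR-243-3p the average difference was -0.17 ± 0.10 (adjusted p = 0.188), and the mutant library was the lower one at 14 of 24 hours. The counting intervals, which treat reads as independent, lay apart at 23 of 24 hours, 9 with lin-28(0) higher and 14 with lin-28(0) lower. The hourly log2 differences scattered from -0.76 at 3 h to 0.63 at 6 h (mean -0.12 ± 0.42, SD). Those of miR-243-5p ran from -0.21 at 15 h to 1.03 at 3 h (mean 0.34 ± 0.40, or 1.27-fold).

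**Figure D2:**
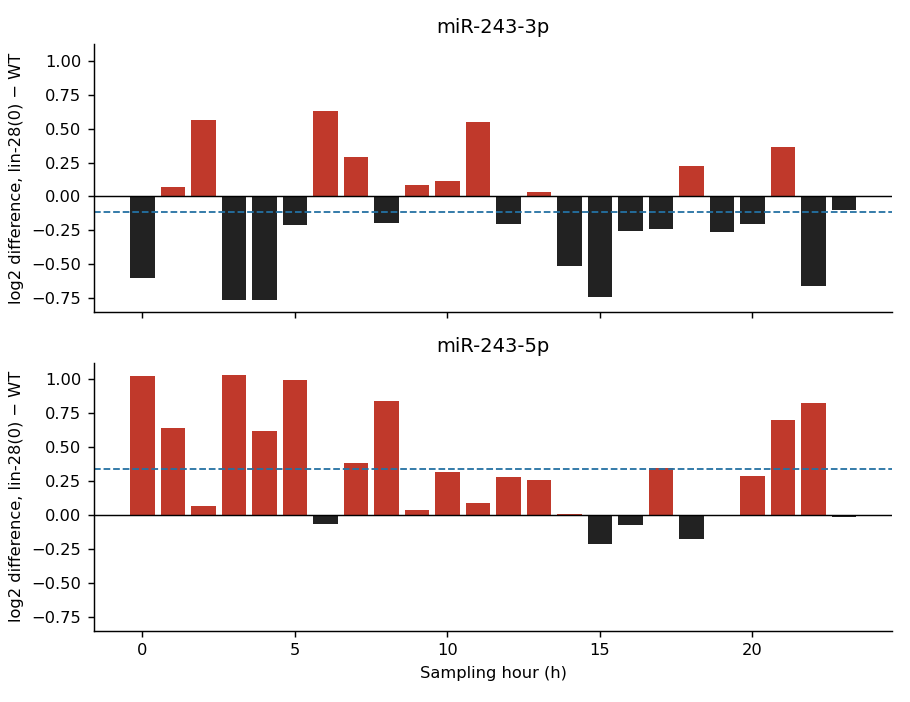
Log2 difference of lin-28(0) from WT in each sampling hour, with 1 CPM added to each level, for miR-243-3p (top) and miR-243-5p (bottom). Red bars mark hours with lin-28(0) higher, black bars hours with WT higher, and the dashed line the mean over 24 hours (-0.12 for 3p and 0.34 for 5p). The 5p bars are mostly positive and tallest at 0, 3 and 5 h, while the 3p bars point both ways.

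The difference of miR-243-5p was largest in the first of 3 windows, except with the 2 h shift given below. At 0 to 7 h it was 0.59 ± 0.10 (adjusted p = 3.3e-05, where 19.9% of strands passed), with the mutant library the higher one at 7 of 8 hours. At 8 to 15 h it was 0.22 ± 0.10 (adjusted p = 0.259, 2.85% of strands past the threshold) and at 16 to 23 h 0.12 ± 0.10 (adjusted p = 0.457, 7.72%). The decline from the first window to the last, -0.46 ± 0.14, did not reach the threshold (adjusted p = 0.0205, 7.72% of strands past it), so a narrowing over time was not established. Without the libraries of 0 h this change was -0.22 (adjusted p = 0.252). miR-243-3p gave -0.23 ± 0.17, 0.03 ± 0.16 and -0.32 ± 0.17 in the same windows, none past the threshold. The test of any difference over time called miR-243-5p (adjusted p = 3.9e-04) and not miR-243-3p (adjusted p = 0.426), with 28% of strands called.

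These values compare equal hours. The hours of lin-28(0) were also counted 2 h later than sampled. The genotypes then shared no hour before 2 h. The WT libraries of 0 and 1 h were thus left out, and the first window was 2 to 7 h. The average difference of miR-243-5p was 0.18 (adjusted p = 0.0182). The windows gave 0.18 (adjusted p = 0.228), 0.22 and 0.15, with a change from first to last of -0.026 (adjusted p = 0.909). miR-243-3p then passed the test of any difference (adjusted p = 3.4e-04). The part of the shift and of the left-out libraries in these values was not tested. In the fit of equal hours, log2 differences of lin-28(0) from WT at 0 to 7 h were also taken for cell type markers. They were 0.63 for miR-228-5p (glia and seam), -0.63 for miR-1-3p (muscle), -0.22 for miR-60-3p (intestine) and 0.35 for miR-124-3p (neurons). The partner strands gave -0.33 (miR-228-3p), 0.02 (miR-1-5p), 0.34 (miR-60-5p) and 0.35 (miR-124-5p), so the strands of a precursor did not always go the same way. The median of all tested strands was 0.08. In the miR-35 family, abundant in embryos and per the study also present in larvae, miR-35-3p gave 1.03. The other tested -3p strands of that family gave 0.17 (miR-39-3p) to 1.01 (miR-37-3p). The part of these markers and of the miR-35 family in the result of miR-243-5p was not tested.

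The ratio of both strands was then compared. Of all counts given to mir-243 in a library, miR-243-5p made up 1.36% (0 h, exact Clopper-Pearson 95% interval 1.19 to 1.55%) to 12.1% (2 h, 11.6 to 12.6%) in WT, with a median of 5.74% (mean 5.81 ± 2.08%, SD over 24 hours). In lin-28(0) it made up 4.16% (0 h, 3.85 to 4.47%) to 14.6% (3 h, 14.1 to 15.1%), with a median of 7.49% (mean 7.60 ± 2.26%). The -3p strand was the more abundant in 48 of 48 libraries, by 5.85 counts per count of miR-243-5p in the lin-28(0) library of 3 h and by 72.3 in the WT library of 0 h. At 16 of 24 hours the share of miR-243-5p was higher in lin-28(0) with counting intervals apart, at 4 hours it was lower in the same sense, and at 4 hours the intervals overlapped.

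**Figure D3:**
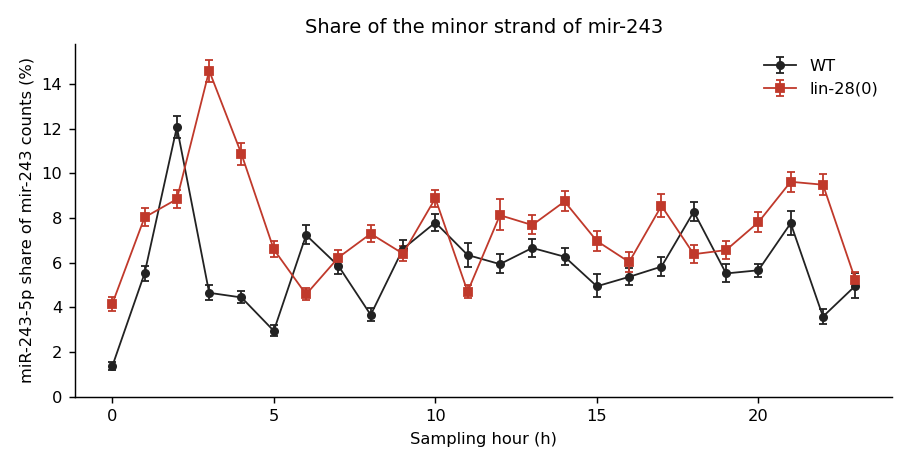
Share of miR-243-5p in all mir-243 counts of a library (percent) against the sampling hour in WT (black circles) and lin-28(0) (red squares), with exact Clopper-Pearson 95% intervals. The share stays below 15% throughout, is lowest at 0 h in both genotypes, and peaks at 2 h in WT (12.1%) and at 3 h in lin-28(0) (14.6%).

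On the log2 scale, the 5p to 3p ratio, with 1 CPM added to each strand, averaged -4.11 ± 0.63 in WT and -3.65 ± 0.45 in lin-28(0) (SD over 24 hours). The mutant had the higher ratio at 19 of 24 hours, by 0.46 ± 0.68 on average, and this difference was smaller than its spread between hours. The two-sided sign-flip permutation test over the 24 hours gave p = 0.0033, but adjusted p = 0.0346 over the 84 precursors with both strands tested, which missed the threshold of 0.01. In all, 8.33% of the precursors passed. The hourly values ranged from -0.70 at 6 h to 1.80 at 3 h, and without the hour of 6 h the mean was 0.51 with adjusted p = 0.00882. At the 13 hours whose library totals were within 1.25-fold of each other between genotypes, the mean was 0.36 and the ratio was higher in lin-28(0) at 10 hours (adjusted permutation p = 0.24). The different calls of both strands on average are therefore not matched by a called difference in their ratio.

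Among the 84 precursors, 47 had more of the -3p strand and 37 more of the -5p strand. mir-243 held the 24th place from the -3p side, with a mean log2 ratio of -3.88. The neighbours with a stronger excess of -3p were mir-231 (-4.56), mir-37 (-4.83) and mir-80 (-5.07), and those with a weaker excess were mir-356b (-3.47), mir-4813 (-3.46) and mir-45 (-3.28). All 6 neighbours had a lower mean ratio in lin-28(0) than in WT, unlike mir-243. Neither their changes nor that of mir-243 passed the threshold. Over all 84 precursors the mean ratio was higher in lin-28(0) in 34, and in 22 of the 47 with more of the -3p strand. The minor strand of mir-243 made up 6.35% of the mean level of both strands, against a median of 4.30% over all precursors. The spread of its log2 ratio over the hours was 0.63 in WT, above the median of 0.57 (50th lowest of the 84). In lin-28(0) it was 0.45, below the median of 0.62 (24th lowest).

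**Figure D4:**
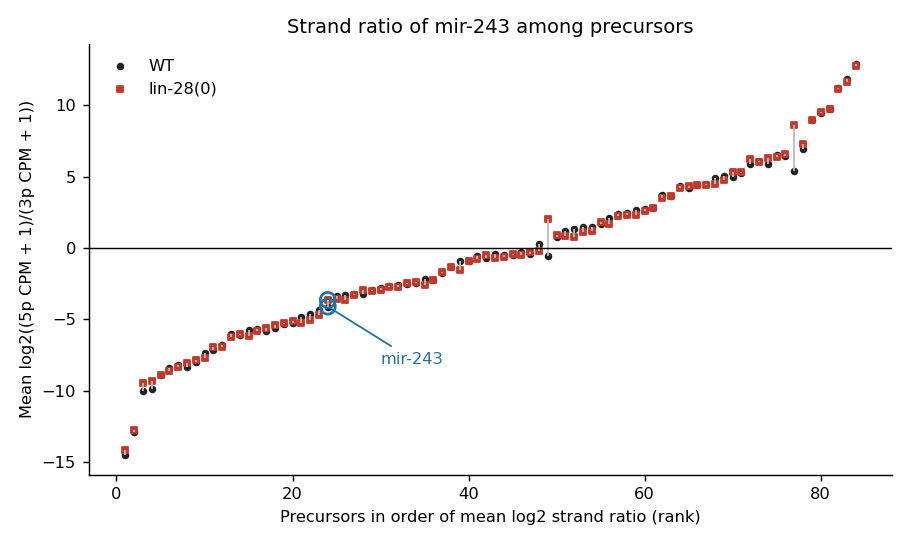
Mean log2 ratio of 5p to 3p (CPM plus 1) for the 84 precursors with both strands tested, ordered by their mean over all 48 libraries. Black circles are WT means and red squares lin-28(0) means over 24 hours, joined by a grey line. mir-243 (ringed in blue) sits at the 24th place from the -3p side, at -4.11 in WT and -3.65 in lin-28(0).

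A minor strand that was called without its partner was not peculiar to mir-243. The minor strand was higher in lin-28(0) and the major strand not called in 8 of the 84 precursors, and mir-243 had the smallest adjusted p of these. The other minor strands were miR-232-5p (0.49), miR-49-3p (0.57), miR-87-5p (0.32), miR-791-3p (0.56), miR-77-3p (0.73), miR-790-5p (0.32) and miR-75-3p (0.28), given as average log2 differences. In a further 6 precursors the minor strand alone was lower in lin-28(0), in 16 the major strand alone was called, in 5 both were and in 49 neither was. Over all precursors, 12 minor strands were higher and 7 lower in lin-28(0), against 15 and 6 of the major strands. Calling a single strand is not a test that both strands of a precursor differ.

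The level of miR-243-3p moved with the depth of the library. Across the 48 libraries its log2 CPM correlated with the log2 library total at r = -0.68, the lowest value of all 246 tested strands (r = -0.72 in WT, also the lowest, and -0.59 in lin-28(0), the 14th lowest). The points share the total as a denominator and fall along the same time course, so the correlation is given as a description. The slope of the log2 count of miR-243-3p on the log2 total was less extreme. It was 0.58, the 39th lowest of the 246 strands. The median slope was 1.08, with a 5% to 95% range of -0.32 to 1.75. Counts of miR-243-3p ranged 4.22-fold between libraries whose totals ranged 8.96-fold. From 1 to 3 h they were 14832 to 16250 in WT and 16800 to 17556 in lin-28(0), although the totals of the WT libraries differed by 2.61-fold. With the libraries of 0 to 3 h left out, r was -0.43 over 40 libraries, the 6th lowest. It was then -0.53 in WT, the 4th lowest, and -0.25 in lin-28(0), the 55th lowest.

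No such relation was seen for miR-243-5p, with r = -0.08 over the 48 libraries. The log2 ratio of both strands correlated with depth at r = 0.39, and at 0.28 from 4 to 23 h. With the log2 library total as a covariate of the edgeR fit, the average difference was 0.29 for miR-243-5p (adjusted p = 7.6e-04) and -0.06 for miR-243-3p (adjusted p = 0.668), and the lin-28(0) course of miR-243-3p missed the threshold (adjusted p = 0.0188). Without the 5 deepest libraries, the average difference of miR-243-5p was 0.25 (adjusted p = 0.0031), but the test of any difference no longer called it (adjusted p = 0.0118). Per the labels, these libraries went through 3 sequencing reactions with a pair of preparation kits. How the counts of a library divide over these reactions is not given, and their part in these values was not tested.

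**Figure D5:**
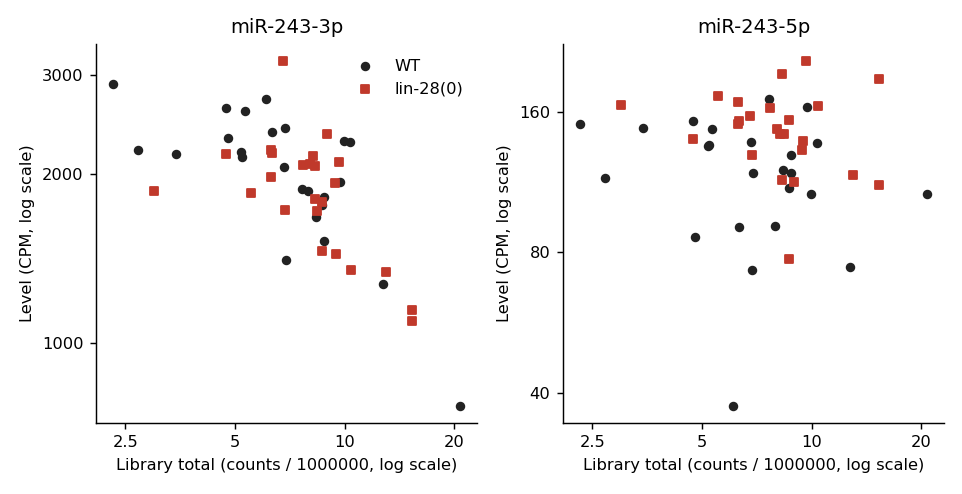
Level (CPM, log scale) of miR-243-3p (left) and miR-243-5p (right) against the library total (counts divided by 1000000, log scale) in WT (black circles) and lin-28(0) (red squares), 1 point per library. miR-243-3p falls from the shallowest to the deepest libraries (r = -0.68 over 48 libraries), and miR-243-5p has no such slope (r = -0.08).

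Transcription of many C. elegans genes cycles with the moults, so both strands were tested for a 9 h rhythm from 5 to 23 h. Neither passed in either genotype. The amplitudes of miR-243-3p were 0.09 in WT and 0.13 in lin-28(0) on the log2 scale (adjusted p = 0.743 and 0.54, edgeR), and those of miR-243-5p were 0.15 and 0.19 (adjusted p = 0.227 and 0.107). By this test 26.8% of strands passed in WT and 16.3% in lin-28(0). The difference in rhythm between genotypes, which 14.2% of strands showed, passed for neither strand (adjusted p = 0.454 for 3p and 0.761 for 5p).

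The scatter around the neighbouring hours gives the precision behind these values. It was 0.30 in WT and 0.19 in lin-28(0) on the log2 scale for miR-243-3p and 0.21 in both for miR-243-5p, against medians of 0.27 and 0.25 over all tested strands. The Poisson error of the read counts alone, which leaves out PCR copies of a molecule, would be 0.01 for miR-243-3p, and 0.05 in WT and 0.04 in lin-28(0) for miR-243-5p. The greatest steps were a rise of miR-243-3p by 1.27 from 2 to 3 h in WT and a rise of miR-243-5p by 0.97 from 0 to 1 h in WT.

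The courses of both strands were unlike each other, with r = 0.01 in WT and 0.06 in lin-28(0) for log2(CPM + 1) over 24 hours. Even so, miR-243-5p was the 86th most like miR-243-3p of the 245 other tested strands. The strands most like miR-243-3p were miR-789-2-5p (mean r over both genotypes 0.68), miR-57-5p (0.61), miR-229-3p (0.58), miR-1829a-5p (0.54) and miR-54-5p (0.51). Those most like miR-243-5p were miR-4816-3p (0.80), miR-250-3p (0.76) and miR-4816-5p (0.74). The fitted late-minus-early differences of these 3 strands were 0.95, 1.25 and 0.54 in WT and 0.87, 1.21 and 1.23 in lin-28(0), and the course passed in every case but that of miR-4816-5p in WT (adjusted p = 0.027). Their average differences between genotypes were -0.02, 0.01 and -0.21, none past the threshold. All are correlations over hours of the same libraries and describe likeness of course alone.

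Strands known as cargo of ALG-1 and ALG-2 were set beside miR-243. Of 12 such strands, 4 were higher in lin-28(0), 1 was lower and 7 were not called. Of all 246 tested strands, 16.3% were higher and 6.5% lower. The median average difference was 0.05 for the 12 strands against 0.04 for all tested strands. let-7-5p, the timing miRNA whose processing LIN-28 restrains, was higher by 6.99 ± 0.19 (adjusted p = 2.3e-29). miR-52-5p, of the miR-51 family, was higher by 0.31 ± 0.08 (adjusted p = 0.0023), as much as miR-243-5p. miR-124-3p, of sensory neurons, was higher by 0.36 ± 0.10 (adjusted p = 0.0061), and the fourth was miR-35-3p, given above. The muscle miRNA miR-1-3p was lower, by -0.28 ± 0.08 (adjusted p = 0.0051). lin-4-5p, miR-34-5p, miR-48-5p, miR-58a-3p, miR-71-5p, miR-80-3p and miR-228-5p were not called on average, like miR-243-3p. miR-228-5p did pass the test of any difference over time (adjusted p = 0.0052), which miR-243-3p did not. In level, miR-243-3p lay nearest to miR-34-5p, which averaged 2399 CPM over the WT libraries and 2617 CPM over those of lin-28(0).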

How the data were processed

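Per the labels and the study's methods, the authors extracted total RNA from whole larvae each hour, sequenced small RNA libraries, aligned reads with Bowtie to ce10 (version not given in the sources used here) allowing up to 100 hits, and deposited raw counts per mature strand from reads starting within 3 bases of an annotated 5′ end. The authors also deposited log2 values, which were rebuilt from the counts within 0.0005 (scaling to the mean total, adding 8, taking the log2) and were not tested. No library pair was identical (1128 pairs compared).

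Groups and hours came from the labels. Strands averaging 10 or more counts per library, 246 in all, were tested with edgeR 4.0.16 in R 4.3.3 (TMM, glmQLFit and glmQLFTest, cubic B-spline of the hour with 6 components, alone or with its interaction with genotype). Adjusted p-values are Benjamini-Hochberg over the strands, with a threshold of 0.01. Strand ratios were tested by sign-flip permutation over 24 hourly pairs (100000 resamples, numpy 2.4.6) with adjustment over 84 precursors. Neighbouring hours are not independent, which these tests do not model. Intervals of counts hold for counting error alone, because reads amplified by PCR and lacking molecular identifiers can be copies of the same molecule. DESeq2 1.42.0, limma 3.58.1, other scalings and filters, shifted hours, the hour as a block and left-out libraries were alternatives. Named strands are both members, the strands most like them in course, the 3 precursors nearest in ratio on each side, and 12 cargo strands of ALG-1 and ALG-2. The 7 other minor strands called without their partner were named after their values were seen, as were the depth comparison and its alternatives. Members and lists were chosen with earlier results of these data known. Duplex pairing and shared seeds, planned as descriptions, were not analysed here.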

Additional observations from a re-analysis of the deposited data

How the results depend on the processing

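A single library per genotype and hour, and depth that varied 8.96-fold, limit these results, and developmental time was not matched between genotypes. The average difference of miR-243-5p kept its direction in 13 of 13 alternatives (0.18 to 0.36) and its call in 12. The exception was the shift of lin-28(0) by 2 h (0.18, adjusted p = 0.0182), which leaves out the WT libraries of 0 and 1 h. It also gave 0.18 in the first window, there 2 to 7 h, and 91 called strands in place of 56. Leaving out each library gave 0.26 to 0.34 for miR-243-5p, -0.23 to -0.14 for miR-243-3p, and 42 to 60 called strands.

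With the sampling hour as a replicate block, the average differences were 0.31 (adjusted p = 0.0013) and -0.15 (adjusted p = 0.259), with 53 strands called, and no call on either strand changed. The unpaired permutation, with no replicate block, gave a strand ratio difference of 0.46 (adjusted p = 0.0511). Its other settings gave 0.36 to 0.46 without a call, and leaving out each hour gave 0.40 to 0.51.

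For miR-243-3p, which was not called, the sign at 8 to 15 h turned with DESeq2 size factors (-0.0172), DESeq2 (-0.0172), TMM over the tested strands (-0.0274), total counts (-0.0035), a shift of -2 h (-0.0189) and without the 5 deepest libraries (-0.0023). The change between windows turned without hour 0 (0.0497), with shifts of -2 and 2 h (0.0382 and 0.22) and without the deepest libraries (0.0297). The late-minus-early value in WT turned without the deepest libraries (-0.32) and with the library total as covariate (-0.17). The cause was not tested.

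The test of any difference gave adjusted p = 3.4e-04 for miR-243-3p with the 2 h shift and 0.0118 for miR-243-5p without the deepest libraries. In lin-28(0), the late-minus-early rises fell short with total counts (0.49 for 3p, 0.40 for 5p). Without 1 to 3 h, which are also the 3 deepest lin-28(0) libraries, the 0 h library alone stood for the early hours. The 3p difference from it was 0.31. The 3p course then gave adjusted p = 0.226, and 0.0188 with the library total. The 5p course gave 0.0193 without hour 0. Leaving out each library, the late-minus-early values ran from -0.0633 (without the WT library of 2 h) to 0.67 (3p) and 0.51 to 0.88 (5p) in WT, and from 0.67 to 0.95 and 0.55 to 0.90 in lin-28(0). Adjusted p of the courses ran from 0.216 to 0.565 and 2.8e-05 to 0.00554 in WT, and from 1.5e-04 to 0.00786 and 2.5e-04 to 0.0193 in lin-28(0).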
